A study of Homo sapiens with 6 samples.

Results

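The stemness markers described here are 10 human genes that are used to recognise stem cells or cancer stem-like cells, *MYC*, *NES*, *NANOG*, *SOX2*, *KLF4*, *CD44*, *CD24*, *PROM1*, *EPCAM* and *LIN28B*. They were read from every Affymetrix probe set that the annotation gives to exactly 1 of these genes, which was 33 of the 54613 probe sets that are not controls, for 10 of 19775 genes with a probe set of their own. The lines were PC9/gef, a gefitinib-resistant derivative obtained by keeping PC9 cells under rising gefitinib concentrations, and PC9, the gefitinib-sensitive lung adenocarcinoma line it came from. Gefitinib inhibits the EGFR kinase. Total RNA of 3 PC9/gef and 3 PC9 samples, called biological replicates in the labels, was hybridized to 1 array each, so the spread is that between samples of a single resistant and a single sensitive line. Both lines grew in the same medium with serum, and whether PC9/gef cells were under gefitinib when RNA was taken is not given in the sources used here.

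Stem cell identity is maintained by a small network of transcription factors. *SOX2*, *NANOG* and *KLF4* belong to the core that keeps embryonic cells pluripotent, *MYC* drives growth and ribosome production, and the RNA-binding protein LIN28B blocks maturation of the let-7 microRNAs, which repress *MYC* among other genes. In carcinomas, cancer stem-like cells are more often recognised by surface proteins: CD44 is the receptor for hyaluronan, CD24 is a small glycosylated protein anchored in the membrane by a lipid, PROM1 (CD133) sits on membrane protrusions, and EPCAM is an epithelial adhesion molecule. NES, or nestin, is an intermediate filament protein of neural progenitors.

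The values are log2 intensities as deposited, and levels of different probe sets cannot be set against each other. A probe set was taken to be at the floor if neither line averaged more than 2.65. Of 135 probe sets for olfactory receptors, 95% have means up to that value, and these receptors are not expected to be transcribed in lung cancer cells. A probe set was called higher or lower in PC9/gef where the limma adjusted p was below 0.05 (Benjamini-Hochberg over all 54613 probe sets) and the mean was above the floor in at least 1 line. With 3 arrays against 3, an exact permutation test of a single probe set cannot give a two-sided p below 0.1. Of the epithelial genes used to check the lines, all 11 measured lay above the floor, 7 of them lower and 2 higher in PC9/gef, with a median log2 change of -0.17. The lower ones are 63.6% and the higher ones 18.2% of the 11, against 19.5% and 20.9% of all genes above the floor. The median log2 change of all genes above the floor was -0.0098, and none of the 11 differed more than 2-fold. The lung lineage genes *NKX2-1*, *SFTPC* and *NAPSA* lay at the floor in both lines, as did 8 of 10 genes of that list. The only call in that list was *FOXA1*, lower in PC9/gef, which averaged 4.30 in PC9/gef and 5.28 in PC9. Its log2 change was -0.98 (limma adjusted p = 0.0166), and 1 of its 2 probe sets was called lower. Both *FOXA1* means lie below 6.67, the 99th percentile of the olfactory receptor means. Of the markers of other cell types, 7 of 9 fibroblast, 5 of 8 leukocyte and 5 of 8 endothelial genes were at the floor, among them *PTPRC*, the pan-leukocyte antigen CD45. Read on the probe set of highest mean for each gene, 1 gene of these 3 lists was called, *PECAM1*, an endothelial adhesion molecule, which averaged 6.49 ± 0.13 in PC9/gef and 8.90 ± 0.022 in PC9 (SD, n = 3 arrays each). *LAPTM5*, a lysosomal protein of leukocytes, averaged 10.93 ± 0.038 in PC9/gef and 10.99 ± 0.070 in PC9 and was not called, although 1 of its 2 probe sets was called lower. *ITGAM*, an integrin of myeloid cells, averaged 4.93 in PC9/gef and 3.77 in PC9 and was not called. *COL1A1*, a fibroblast collagen, averaged 8.46 ± 0.074 in PC9/gef and 7.94 ± 0.21 in PC9 and was not called. The part of such differences in the values of the stemness markers was not tested.

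Of the 10 markers, *CD24*, *CD44* and *NES* had probe sets called higher in PC9/gef, *CD44* also had 1 called lower, and *MYC*, *KLF4*, *EPCAM* and *LIN28B* had none called. *SOX2*, *NANOG* and *PROM1* were at the floor in both lines. In all, 24 of the 33 probe sets lay above the floor. Of these, 11 were called higher, 1 was called lower and 12 were not called. Over the whole array 7.61% of all probe sets were called higher and 7.68% lower, and of the 25348 probe sets above the floor in at least 1 line 16.4% were called higher and 16.5% lower. Read by gene, with each gene represented by its probe set of highest mean, 20.9% of the 11955 genes above the floor were called higher and 19.5% lower. The 11 higher calls lie on 3 genes, and 8 of the 12 calls are on probe sets whose names end in _x_at or _s_at, which can bind transcripts of other genes or several transcripts, so the probe sets are not independent of each other. The median log2 change of the 24 probe sets was 0.13, against -0.014 for all probe sets above the floor. No probe set of the 10 markers differed more than 2-fold between the lines.

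**Figure D1:**
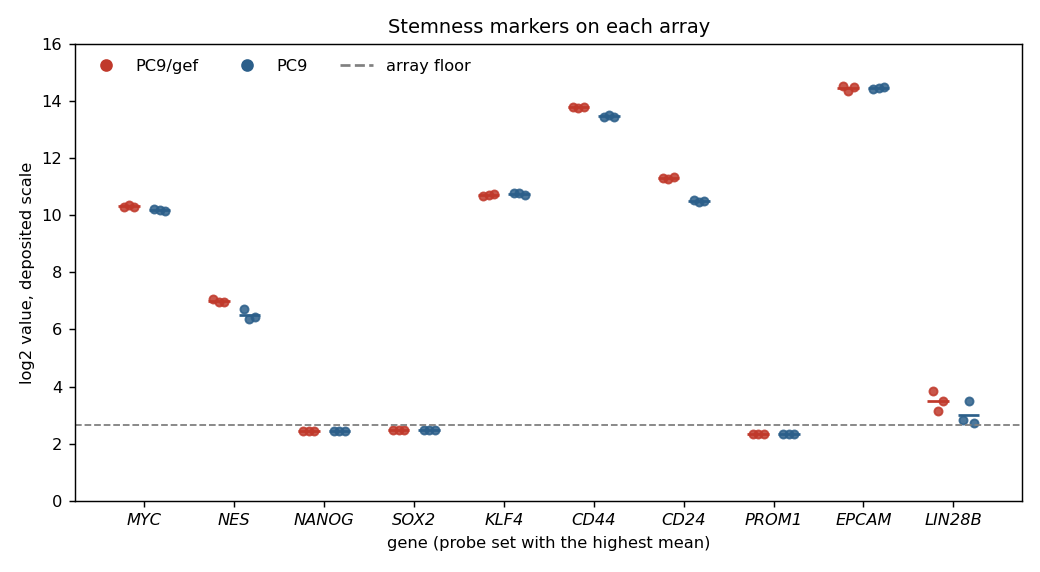
Log2 value (vertical axis) of each stemness marker on its probe set of highest mean, 1 point per array, with a bar at the average of each line and the array floor of 2.65 as a dashed line. *NANOG*, *SOX2* and *PROM1* lie below the floor on all arrays, and the PC9/gef points of *CD24*, *CD44* and *NES* lie above all PC9 points. Those of *MYC*, which was not called, also lie above its PC9 points, by less.

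The DNA just before the start of *CD44*, *NES* and *KLF4* is shown, the first 2 because they carry calls and *KLF4* because its window holds the sequence that MYC binds. Each run covers the 250 bases before the annotated start, from RefSeq on GRCh38.p14, 5′ to 3′ on the strand of the gene, and the capitals mark matches to the E-box CACGTG bound by MYC and to the CACCC box bound by KLF factors (CACCC or GGGTG). The window of *CD44* lies at chr11:35138921-35139170 on the plus strand, that of *NES* at chr1:156677408-156677657 on the minus strand and that of *KLF4* at chr9:107489770-107490019 on the minus strand.
CD44: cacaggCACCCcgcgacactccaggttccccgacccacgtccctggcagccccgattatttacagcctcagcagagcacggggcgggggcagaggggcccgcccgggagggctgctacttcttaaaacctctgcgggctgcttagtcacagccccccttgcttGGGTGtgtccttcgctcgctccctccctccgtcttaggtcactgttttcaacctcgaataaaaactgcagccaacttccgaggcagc
NES: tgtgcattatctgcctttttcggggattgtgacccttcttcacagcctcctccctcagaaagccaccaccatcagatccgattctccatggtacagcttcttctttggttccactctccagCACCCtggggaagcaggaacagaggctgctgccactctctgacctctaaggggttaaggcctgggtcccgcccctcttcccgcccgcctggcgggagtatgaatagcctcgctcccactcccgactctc
KLF4: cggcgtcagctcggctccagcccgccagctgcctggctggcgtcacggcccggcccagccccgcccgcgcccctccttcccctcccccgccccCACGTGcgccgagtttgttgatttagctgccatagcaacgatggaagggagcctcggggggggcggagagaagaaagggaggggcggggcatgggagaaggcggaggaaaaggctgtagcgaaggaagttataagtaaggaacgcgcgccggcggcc
CACGTG was found in 6.345% of 35116 listed windows of the same length and CACCC or GGGTG in 54.71%. The AP-1 sequence TGACTCA or TGAGTCA, found in 4.203% of the windows, was in none of the 3 shown. For *CD24* the table lists 3 windows, and the first lies inside the annotated gene, so none is shown. These matches are letters in a window and were not related to binding.

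*CD24* had 4 of its 6 probe sets higher in PC9/gef, all by similar amounts, and 2 not called. Probe set 209771_x_at read 11.32, 11.29 and 11.34 in PC9/gef cells, against 10.52, 10.47 and 10.49 in PC9 cells. The 3 resistant arrays lay far above the 3 sensitive ones, with a log2 change of 0.82 (SE 0.020, limma adjusted p = 0.00021), or 1.76-fold. Probe set 216379_x_at averaged 11.24 ± 0.032 in PC9/gef and 10.34 ± 0.043 in PC9 (SD, n = 3 arrays each). On 266_s_at the values were 10.12, 10.08 and 10.18 in PC9/gef, against 9.12, 9.31 and 9.26 in PC9. Probe set 208651_x_at read 9.06, 9.03 and 9.10 in PC9/gef and 8.20, 8.08 and 8.18 in PC9. The groups overlapped on none of these 4 probe sets. Such separation by itself says little, since *NANOG* 231079_at and *SOX2* 213721_at showed it at the floor, and its share over the whole array was not counted. The log2 changes of the 4 *CD24* probe sets lay between 0.82 and 0.91, at most 1.88-fold, with limma adjusted p from 0.00021 to 0.0018.

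The other two *CD24* probe sets did not show this difference. Probe set 208650_s_at read 9.96, 9.70 and 9.87 in PC9/gef, against 9.85, 9.91 and 9.90 in PC9, and the arrays of the lines overlapped. Its log2 change was -0.044, with a 95% confidence interval from -0.24 to 0.15 that leaves out the changes of the other 4. Probe set 209772_s_at averaged 7.53 ± 0.068 in PC9/gef and 7.60 ± 0.084 in PC9 (SD, n = 3 arrays each), again with overlapping arrays and a 95% confidence interval of the log2 change from -0.23 to 0.089. All 6 probe sets are annotated to *CD24* alone, and 3 of the 4 called end in _x_at, the class that Affymetrix marks for possible binding to other transcripts. Whether the difference between the probe sets comes from other transcripts or from different *CD24* transcripts was not tested. Averaged over all 6 probe sets, the log2 change of *CD24* was 0.57.

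*CD44* was measured by 13 probe sets, the most of any marker, and they did not move one way. Of these, 6 were higher in PC9/gef, 1 was lower, 4 were not called and 2 were at the floor. The probe set of highest mean, 212063_at, read 13.80, 13.76 and 13.79 in PC9/gef cells, against 13.45, 13.50 and 13.45 in PC9 cells. The lines did not overlap, and the log2 change was 0.32 (SE 0.020, limma adjusted p = 0.0015), or 1.25-fold. On 4 other probe sets (204489_s_at, 204490_s_at, 209835_x_at and 212014_x_at) the means were between 11.83 and 12.96 in PC9/gef and between 11.70 and 12.74 in PC9. Their log2 changes were small, from 0.097 to 0.22, and their limma adjusted p ran from 0.0221 to 0.0264. The lines did not overlap on these 4, but neither did they on *CD44* 234418_x_at, which was at the floor. Each of these 4 calls was lost in at least 4 of the 6 fits that left out 1 array. For 204489_s_at only the fit without PC9/gef replicate 3 kept the call, for 209835_x_at only that without PC9/gef replicate 1, for 204490_s_at those without replicate 2 of either line, and for 212014_x_at those without PC9 replicate 2 or 3.

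A further pair of *CD44* probe sets had the largest changes of the 13, in opposite directions. Probe set 217523_at read 7.69, 7.50 and 7.72 in PC9/gef, against 6.77, 6.80 and 6.62 in PC9, so all resistant arrays were above all sensitive ones. Its log2 change was 0.91 (SE 0.084, limma adjusted p = 0.0043), or 1.87-fold. Probe set 229221_at read 6.91, 6.95 and 6.87 in PC9/gef and 7.77, 7.83 and 7.63 in PC9, with all resistant arrays below all sensitive ones. Its log2 change was -0.83 (SE 0.063, limma adjusted p = 0.0024), or 1.78-fold lower in PC9/gef. Both calls, like that of 212063_at, were kept whichever array was left out. Neither name carries the suffix _x_at or _s_at. The annotation gives both to *CD44* without naming the exons or strand they target, so which *CD44* transcripts moved cannot be told from these values.

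The remaining *CD44* probe sets did not pass the test. Probe set 1557905_s_at averaged 9.29 ± 0.062 in PC9/gef and 9.32 ± 0.058 in PC9, and 210916_s_at averaged 8.27 ± 0.16 in PC9/gef and 8.12 ± 0.055 in PC9 (SD, n = 3 arrays each). Probe set 1565868_at was low, between 3.69 and 3.98 in PC9/gef and between 3.53 and 3.84 in PC9. Probe set 234411_x_at counted as above the floor through 1 PC9 array at 3.07, the other PC9 arrays reading 2.60. Averaged over all 13 probe sets, the log2 change of *CD44* was 0.086.

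**Figure D2:**
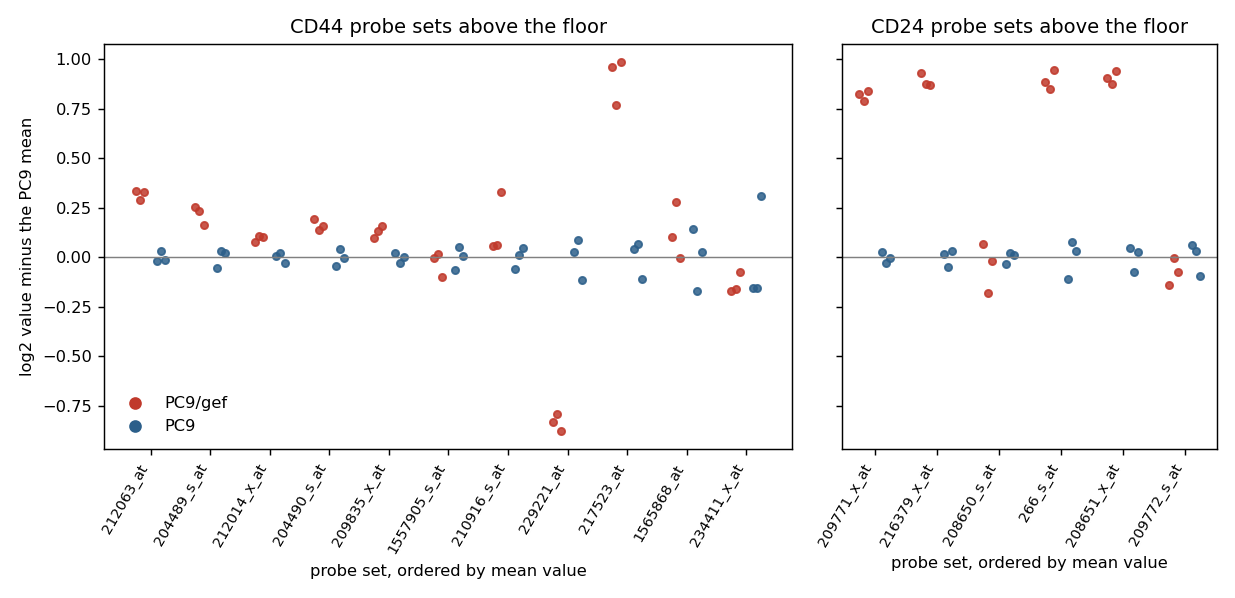
Log2 value less the PC9 mean of the same probe set (vertical axis) for the probe sets of *CD44* and *CD24* above the floor, 1 point per array, with PC9/gef to the left of PC9. On 4 *CD24* probe sets the PC9/gef arrays sit at about the same height while on 2 they sit around 0, and the *CD44* probe sets 217523_at and 229221_at lie on opposite sides of 0.

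*NES* was higher in PC9/gef on the 1 of its 2 probe sets that gave a clear signal. Probe set 218678_at read 7.05, 6.97 and 6.97 in PC9/gef cells, against 6.70, 6.38 and 6.45 in PC9 cells. The arrays did not overlap, and the PC9 arrays were spread more widely, with an SD of 0.17 against 0.048 in PC9/gef. The log2 change was 0.49 (SE 0.097, limma adjusted p = 0.0397), or 1.40-fold. The call was kept without PC9 replicate 1, the highest PC9 array, and lost without any other single array, where the adjusted p reached 0.122. The second probe set, 229346_at, lay just above the floor, at 2.71 on average in PC9/gef and 2.75 in PC9.

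*MYC*, *KLF4* and *EPCAM* had clear signals in both lines and small differences. *MYC* was measured by a single probe set, 202431_s_at, which read 10.30, 10.35 and 10.27 in PC9/gef cells, against 10.23, 10.20 and 10.15 in PC9 cells. All resistant arrays lay above all sensitive ones, but the log2 change was 0.12 (SE 0.031, 95% confidence interval from 0.035 to 0.199), or 1.08-fold, and the limma adjusted p was 0.0707. *MYC* passed the threshold only when the fit was restricted to probe sets above the floor on average (adjusted p = 0.0436).

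*KLF4* on 221841_s_at averaged 10.71 ± 0.046 in PC9/gef and 10.75 ± 0.045 in PC9 (SD, n = 3 arrays each), with a log2 change between -0.13 and 0.056 (95% confidence interval). Its second probe set, 220266_s_at, read 6.59, 6.54 and 6.54 in PC9/gef and 6.70, 6.69 and 6.38 in PC9. PC9 replicate 3 stood below the other PC9 arrays there, and without it the probe set was called lower in PC9/gef, by -0.14 on the log2 scale (limma adjusted p = 0.043). *EPCAM* read 14.52, 14.34 and 14.48 in PC9/gef, against 14.41, 14.45 and 14.50 in PC9. The arrays were interleaved, and the 95% confidence interval of the log2 change, from -0.16 to 0.14, leaves out a change as large as that of *CD24* on its 4 called probe sets.

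*LIN28B* was close to the floor and varied from array to array. It read 3.85, 3.16 and 3.48 in PC9/gef cells, against 2.83, 3.50 and 2.74 in PC9 cells, and PC9 replicate 2 exceeded 2 of the 3 PC9/gef arrays. The log2 change of 0.48 had a 95% confidence interval from -0.32 to 1.27 (limma adjusted p = 0.312), a range that holds both no difference and a 2-fold rise.

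*NANOG*, *SOX2* and *PROM1* were at the floor on every probe set, 2 for *NANOG*, 4 for *SOX2* and 1 for *PROM1*. Their values lay between 2.06 and 2.47 on all 6 arrays. At this level a probe set gives no measure of a difference, and no transcript of these 3 genes was detectable above the floor in either line.

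**Figure D3:**
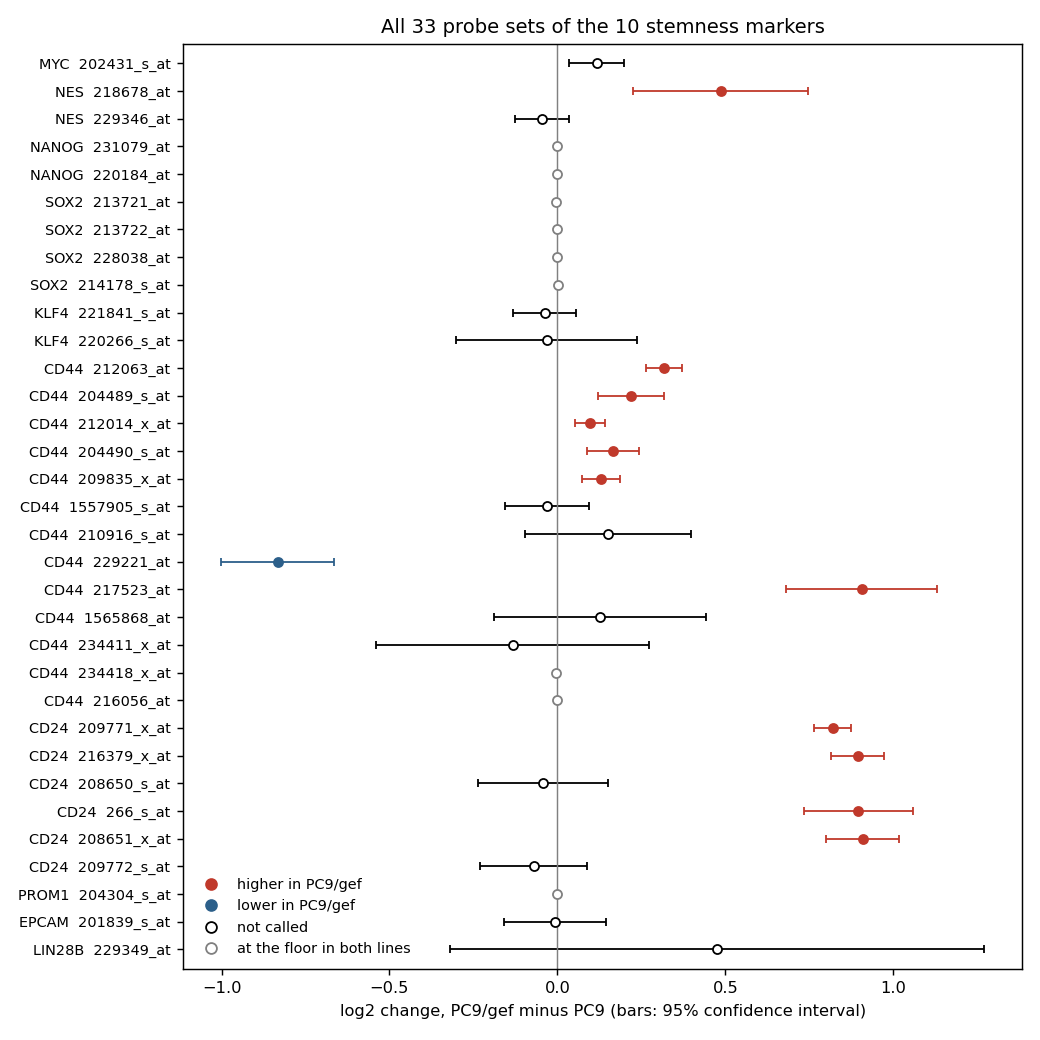
Log2 change (horizontal axis, PC9/gef minus PC9) with its 95% confidence interval for all 33 probe sets of the 10 stemness markers, filled where called. The filled points to the right of 0 belong to *NES*, *CD44* and *CD24*, and the only filled point to the left is *CD44* 229221_at.

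By likeness of profile, the 3 genes nearest to *MYC* were *SARS1*, *ROMO1* and *USP40*, among 11689 genes above the floor in both lines. Likeness was the root mean square difference over the 6 arrays of the log2 values less the PC9 mean, which was 0.0066 for *SARS1*, 0.0090 for *ROMO1* and 0.013 for *USP40*. The genes nearest to *CD44* on 212063_at were *ARLN* (0.012), *CKAP2* (0.016) and *PIR* (0.017). Such closeness was common, since 2591 genes lay within 0.1 of *MYC* and 1208 within 0.1 of *CD44*.

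The genes around MYC were read from hand-written lists. Of 38 measured genes that MYC is known to activate, 20 were lower in PC9/gef, 3 were higher, 14 were not called and 1 was at the floor. The lower ones are 54.1% of the 37 above the floor, against 19.5% of all genes above the floor, and the median log2 change of the list was -0.11, against -0.0098 for all genes above the floor. Most of these changes were small, with a median of -0.18 among the 20 and none over 2-fold. The largest was that of *SRM*, the spermidine synthase, which averaged 9.55 in PC9/gef and 10.45 in PC9 (log2 change -0.89, SE 0.022, limma adjusted p = 0.00021). *RRP9*, needed for processing ribosomal RNA, changed by -0.87, *HK2*, a hexokinase of glycolysis, by -0.53 and *TFRC*, the transferrin receptor, by -0.44 on the log2 scale. Of the 3 *HK2* probe sets 1 was called lower, and of the 5 *TFRC* probe sets 2. The call of *RRP9* was lost without PC9/gef replicate 1 or 2 or PC9 replicate 2 or 3. The genes higher in PC9/gef, named after their values were seen, were *LDHA*, *FBL* and *UBTF*. The count of lower genes was 13 without PC9/gef replicate 3, 13 without PC9 replicate 2 and 13 without PC9 replicate 3. Calls were lost in the other fits without 1 array too, such as that of *NCL* without PC9/gef replicate 1 or 2 or PC9 replicate 1.

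Of 7 genes that MYC is known to repress, 4 were higher in PC9/gef, 1 was lower and 2 were at the floor, too few for a share. Of all genes above the floor, 20.9% were called higher and 19.5% lower. *CDKN1A*, the cell cycle inhibitor p21, averaged 8.82 ± 0.049 in PC9/gef and 7.20 ± 0.12 in PC9 (SD, n = 3 arrays each), a log2 change of 1.62 (limma adjusted p = 0.00064). *GADD45A*, a stress-induced growth arrest gene, averaged 12.62 in PC9/gef and 11.58 in PC9, a change of 1.04. *NDRG1* rose by 0.31 and *NDRG2* had a log2 change of -0.83, with 1 of its 3 probe sets called lower. *CDKN2B*, the inhibitor p15, named after its values were seen, rose by 0.27. The count of higher genes was 2 without PC9/gef replicate 1, without PC9/gef replicate 3 or without PC9 replicate 2. The call of *NDRG1* was lost whichever array was left out, and that of *NDRG2* without PC9/gef replicate 1 or 3 or PC9 replicate 1 or 3. Of 25 measured partners and regulators of MYC, 3 were higher, 6 lower, 13 not called and 3 at the floor. This is 13.6% higher and 27.3% lower of the 22 above the floor, against 20.9% and 19.5% of all genes above the floor. *CIP2A*, which protects MYC from dephosphorylation, changed by -1.10, *TRRAP*, a coactivator that MYC recruits, by -0.92 and *MLX*, a dimerisation partner of MYC-related factors, by -0.55 on the log2 scale. *PIM1*, a kinase, changed by 0.57, a call that was lost without PC9/gef replicate 3 or PC9 replicate 1 or 2.

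Of 22 measured genes of hyaluronan metabolism and CD44 partners, 4 were higher, 5 lower, 8 not called and 5 at the floor. The higher ones are 23.5% and the lower ones 29.4% of the 17 above the floor, against 20.9% and 19.5% of all genes above the floor. *CEMIP*, which takes part in hyaluronan breakdown, averaged 6.30 in PC9/gef and 8.44 in PC9, a log2 change of -2.14 (SE 0.047, limma adjusted p = 0.00017). Of its 2 probe sets 1 was called lower. *MSN*, or moesin, which links CD44 to actin, rose by 0.56, with 1 of its 2 probe sets called higher. *NF2*, the related protein merlin, rose by 0.37, with 1 of its 8 called higher. *CEMIP2* changed by 0.43, a call that was lost without PC9/gef replicate 1 or 3 or PC9 replicate 3. Without PC9/gef replicate 1 the count of higher genes was 2.

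Of 13 measured partners of EPCAM, CD24 and PROM1, 6 were higher, 3 lower, 1 not called and 3 at the floor. This is 60% higher and 30% lower of the 10 above the floor, against 20.9% and 19.5% of all genes above the floor. Without PC9/gef replicate 1 the higher ones numbered 3. Of the higher genes, *LEF1* kept its call in 1 of the 6 fits that left out 1 array, *ADAM17* in 2 and *PROM2* in 3. *CLDN7*, a tight junction protein that binds EPCAM, changed by -0.51 and *CTNNB1*, or beta-catenin, by -0.36 on the log2 scale. Of the 3 *CTNNB1* probe sets 1 was called lower. *PSEN2*, a presenilin of the protease that cleaves EPCAM, rose by 0.69 and *FHL2*, which joins the cleaved EPCAM tail, rose by 0.51.

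The pluripotency genes other than the markers were mostly silent. Of 27 measured, 17 were at the floor in both lines, 8 were not called, 1 was higher and 1 was lower. This is 10% in each direction of the 10 above the floor, against 20.9% higher and 19.5% lower of all genes above the floor. *DPPA2*, a gene of pluripotent and germ cells, averaged 5.28 ± 0.30 in PC9/gef and 3.23 ± 0.24 in PC9 (SD, n = 3 arrays each), a log2 change of 2.05 (SE 0.21, limma adjusted p = 0.0058). Both means lie below 6.67, the 99th percentile of the olfactory receptor means. *KLF5* changed by -0.56, a call lost without PC9/gef replicate 1 or 3 or PC9 replicate 2 or 3. *POU5F1* and *BMI1* had no probe set annotated to them alone and were not analysed here. In the SOX and KLF families, 5 of 34 genes were higher, 3 lower, 11 not called and 15 at the floor. This is 26.3% higher and 15.8% lower of the 19 above the floor, against 20.9% and 19.5% of all genes above the floor. *KLF9* rose by 0.998, with 1 of its 5 probe sets called higher, *KLF11* by 0.90, with 1 of 2, and *SOX4* by 0.83, with 4 of 6. *SOX7* changed by -0.98, with both of its probe sets called lower. The count of lower genes in these families was 1 without PC9/gef replicate 1, PC9 replicate 2 or PC9 replicate 3.

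Of 27 other cancer stem cell markers, 6 were higher, 8 lower, 7 not called and 6 at the floor. This is 28.6% higher and 38.1% lower of the 21 above the floor, against 20.9% and 19.5% of all genes above the floor. *ALDH1A1*, the aldehyde dehydrogenase often used to sort stem-like cells, read 2.70, 2.54 and 2.53 in PC9/gef, against 3.58, 3.87 and 3.87 in PC9. The mean of the PC9/gef arrays was at the floor, so *ALDH1A1* was at least 2.18-fold lower in PC9/gef (limma adjusted p = 0.0038). That bound rests on the floor of 2.65. With the floor at the 99th percentile of the olfactory receptor means, 6.67, *ALDH1A1* was at the floor in both lines. *ALDH3A1*, another aldehyde dehydrogenase, averaged 8.16 in PC9/gef and 10.65 in PC9, a log2 change of -2.49, and *ABCG2*, the drug efflux pump of side population cells, changed by -1.38. *PROCR*, the endothelial protein C receptor, rose by 1.40. These 4 calls were kept whichever array was left out. A further aldehyde dehydrogenase of the list, *ALDH1A3*, named after its values were seen, went the other way. It averaged 13.61 in PC9/gef and 13.05 in PC9, a log2 change of 0.56 (limma adjusted p = 0.00076). Of its 2 probe sets 1 was called higher, and that call too was kept whichever array was left out.

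Around LIN28 and let-7, 3 of 18 measured genes were higher, 3 lower, 10 not called and 2 at the floor. This is 18.8% in each direction of the 16 above the floor, against 20.9% higher and 19.5% lower of all genes above the floor. *CDC25A*, a cell cycle phosphatase, changed by -1.10 and *IGF2BP3*, an oncofetal RNA-binding protein, rose by 0.40 on the log2 scale. *E2F5* changed by -0.40 and *TUT7*, a uridylyltransferase, by 0.24, calls kept in 1 and 2 of the 6 fits without 1 array. Another probe set of *TUT7* was called lower. The count of higher genes was 1 without PC9/gef replicate 2, PC9/gef replicate 3 or PC9 replicate 2, and that of lower genes was 1 without PC9/gef replicate 1 or PC9 replicate 3.

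Among 17 genes of neural progenitors and nestin partners, 2 were higher, 4 lower, 4 not called and 7 at the floor. This is 20% higher and 40% lower of the 10 above the floor, against 20.9% and 19.5% of all genes above the floor. *VIM*, or vimentin, the filament protein that nestin assembles with, averaged 11.33 ± 0.035 in PC9/gef and 10.43 ± 0.066 in PC9 (SD, n = 3 arrays each), a log2 change of 0.91 (limma adjusted p = 0.00072). Of its 2 probe sets 1 was called higher. *INA*, a neuronal intermediate filament, changed by -1.68, *PAX6*, a neural progenitor factor, by -0.98 and *HES1*, a Notch target, by -0.57. The count of higher genes was 1 whichever PC9 replicate was left out.

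**Figure D4:**
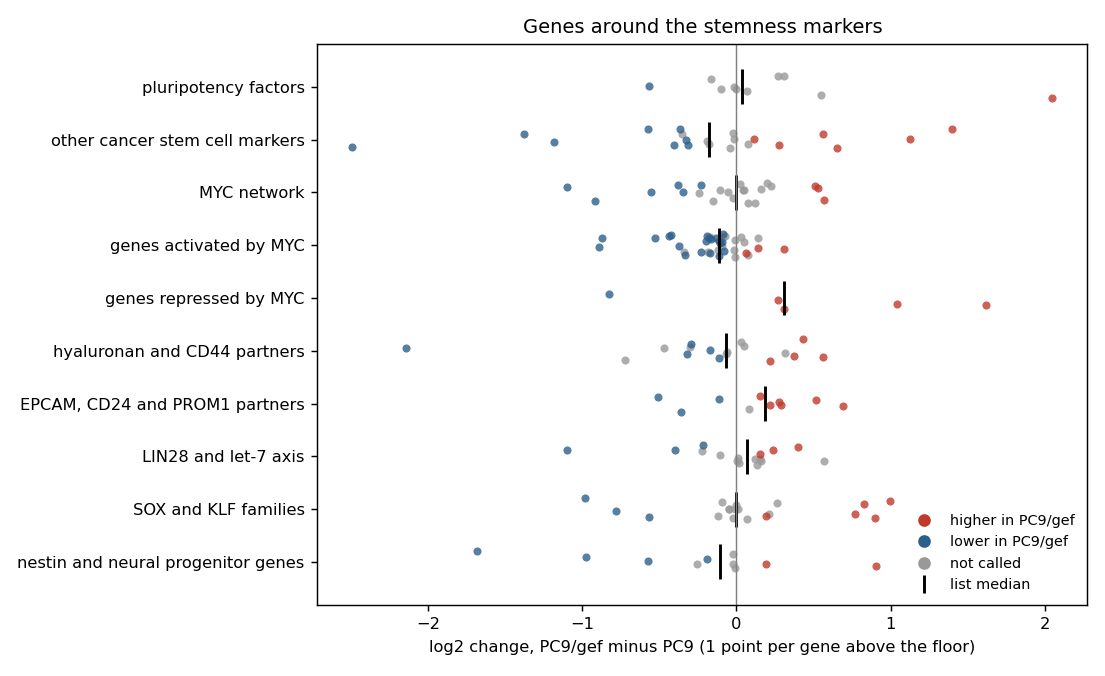
Log2 change (horizontal axis, PC9/gef minus PC9) of the genes above the floor in 10 lists around the stemness markers, 1 point per gene and a bar at the median of each list; the vertical scatter within a list is arbitrary. Genes activated by MYC cluster just left of 0, with 20 of 37 called lower.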

How the data were processed

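The arrays were of the Affymetrix design with 54675 probe sets, of which 62 controls were left out. The deposited values are log2 intensities, 1 per probe set, which the authors obtained by background correction and normalization. GC-RMA in GeneSpring GX is the procedure in the supplementary methods and RMA that in the submitters' processing notes, with no versions given in the sources used here. Such processing gives all 6 arrays the same distribution of values and draws dim probe sets together, so differences near the floor are compressed. The values were used without further normalization.

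A single gene is annotated for 41091 probe sets, several for 1801 and no gene for 11721. PC9/gef and PC9 were compared with limma 3.58.1 under R 4.3.3 (lmFit and eBayes, 3 arrays per line), with Benjamini-Hochberg adjustment over all probe sets tested. Confidence intervals are at 95% from the same fit. The number of arrays limits the precision. Summaries and figures used Python 3.11.15, pandas 2.3.3 and matplotlib 3.10.9. Promoter windows are those of RefSeq on GRCh38.p14, in which 8 of the 10 markers are listed. Gene symbols needed no update. Genes of the related lists were read on their probe set of highest mean, and other probe sets of the same gene were not always called.

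The members, the gene lists and the rules were chosen with earlier results of these data known. All 33 member probe sets are described, with up to 4 called genes of largest absolute change per related list, *ALDH1A1* and the 3 genes of nearest profile to *MYC* and *CD44*. *COL1A1*, *LAPTM5*, *ITGAM*, *LDHA*, *FBL*, *UBTF*, *CDKN2B*, *ALDH1A3*, *NCL*, *LEF1*, *ADAM17* and *PROM2* were named after their values were seen. Replicate numbers are not stated to mark a shared batch or day. The alternatives were a replicate block, a 2-fold minimum, median centring, quantile normalization, robust moderation with a trend, a fit on probe sets above the floor only, a floor at the 99th percentile, leaving out each array, dropping the _x_at and _s_at probe sets and the mean over the probe sets of a gene.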

Additional observations from a re-analysis of the deposited data

How the results depend on the processing

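The count of 11 member probe sets higher in PC9/gef was 7 to 8 when 1 array was left out, 5 with the replicate number as a block, 3 without probe sets named _x_at or _s_at and 0 at a 2-fold minimum. The count of 1 lower was 1 to 2 when 1 array was left out and 0 at a 2-fold minimum. Under median centring, quantile normalization, robust moderation with a trend and the floor at the 99th percentile both counts were unchanged, restricting the fit to probe sets above the floor gave 12 higher and 1 lower, and no call reversed under any alternative. Of the 12 called probe sets, 7 were called in every fit that left out 1 array, *CD44* 212063_at, 217523_at and 229221_at and the 4 of *CD24*. With the block 6 were called, 217523_at being lost (adjusted p = 0.0714). Same-numbered samples of the lines did not deviate together (correlations -0.025, 0.016 and 0.047), so the numbers give no pairing. The block also took the count of lower genes that MYC activates to 11. The cause of these losses was not tested, beyond the fewer arrays or degrees of freedom. Signal over the floor limits *LIN28B*, *NANOG*, *SOX2* and *PROM1*. With the floor at the 99th percentile, 6.67, the called genes *ALDH1A1*, *DPPA2*, *KLF9*, *NDRG2*, *LEF1* and *FOXA1* were at the floor in both lines.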
